A study of Homo sapiens with 8 samples.

Results

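The 50 genes described here lie on the short arm of human chromosome 17 (17p), from C17orf97 near the telomere to DHRS7B and TMEM11, and were chosen because their messenger RNA was higher in leukaemia cells resistant to a BET inhibitor than in their parental line. They are 50 of 19718 coding genes in the deposited table, matched by gene symbol, and all 50 symbols were found. The cells were HEL92.1.7, an erythroleukaemia line that the labels describe as secondary AML, and HEL OTX P/R, a persister-resistant derivative of that line, called parental and P/R below. Each line was sequenced untreated and after 8 hours in 1000 nM OTX015 (birabresib), a BET inhibitor, with 2 libraries in each of 4 groups. Both lines were grown in RPMI1640 medium with serum, and the 2 libraries of a group are described as biologic replicates of independently treated cells. Whether the P/R line is 1 clone or a mixed population, and how long it had been off drug when sampled as untreated, the sources used here do not say. The members share a place in the genome rather than a pathway: they serve membrane traffic, the cytoskeleton, signalling, RNA processing and translation, chromatin, protein degradation, mitochondria and the nuclear pore.

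The short arm of chromosome 17 carries many genes that are active in almost every cell type. BET proteins read acetylated histones and help RNA polymerase II to leave promoters, so a BET inhibitor changes the transcription of many genes within hours. Several members belong to multi-subunit machines whose other subunits are encoded elsewhere in the genome, such as the spliceosome, the proteasome and the dynein motor, so the levels of those partners were read out beside the members.

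Values are quantile-normalized FPKM, a read-based level scaled to transcript length and library size, in which every library has the same total of 678133 and the sequencing depth cannot be recovered. Libraries of the same group correlated across genes at r = 0.996 to 0.997, and genes are not independent replicates. Erythroid and megakaryocyte markers of HEL cells were abundant, with summed levels of 27085 to 30127 and 456 to 704 FPKM over the 8 libraries, though VWF among the latter was near 0. Lymphocyte markers summed to at most 5.99 FPKM, nearly all of it CD79A, with CD3D and MS4A1 at 0 in every library. Among epithelial and stromal markers COL1A2 was listed at 0 in every library and EPCAM was at or near 0, while KRT18 and KRT8 were present and higher in P/R cells, so that this list ran from 21.4 to 118 FPKM. In untreated P/R cells, 4 of 5 tested megakaryocyte markers were higher and 1, ITGA2B, was lower, with PF4, a platelet chemokine, at 47.4 and 50.4 FPKM against 2.66 and 2.00 FPKM in parental cells and ITGA2B, an integrin chain, at 326 and 300.1 against 390.1 and 366 FPKM. Of 9 erythroid markers 4 were lower and none higher, with TFRC, the transferrin receptor, at 99.6 and 104 against 229 and 260 FPKM, while GATA1 and the 4 globin genes did not pass. The part of these marker differences in the results on the members was not tested. In bulk samples a lower level per cell and fewer cells with a transcript cannot be told apart.

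**Figure D1:**
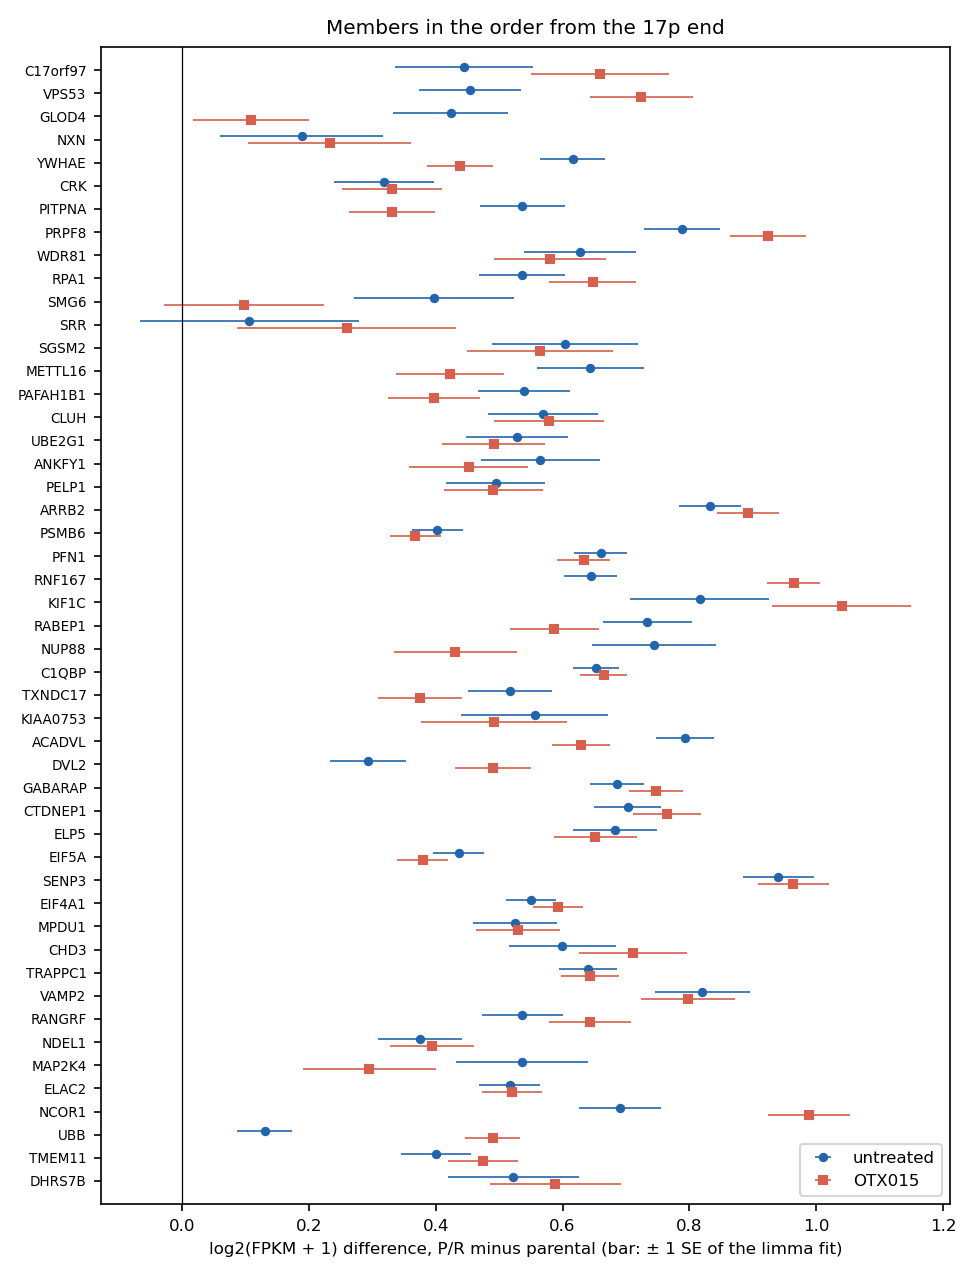
Difference in log2(FPKM + 1) between P/R and parental cells for the 49 members that passed the filter on low values, in order from the end of 17p, untreated (blue circles) and under OTX015 (red squares). Points are estimates from 2 libraries against 2, and bars are 1 standard error of the limma fit. All points lie above 0, from 0.10 to 1.04.

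Of the 50 members, 49 had at least 1 FPKM in at least 2 libraries. In these 49 the P/R level was higher than the parental level in both conditions, because they were chosen for it, so the values of this difference are a description and no test of it is used. The ratio of group means had a median of 1.53 in untreated cells (range 1.09 to 1.94) and of 1.51 under OTX015 (range 1.08 to 2.18). Ratios between 1.3 and 1.7 were found for 38 members untreated and for 31 under OTX015, against 7.28% and 6.84% of the 11255 genes tested. On the log2(FPKM + 1) scale, which understates differences of low genes, the medians were 0.55 and 0.56, against -0.01 for all genes tested in each condition.

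Both untreated P/R libraries were above both untreated parental libraries for 48 of 49 members, against a background of 29.3% of all genes tested. Under OTX015 this held for 47 of 49, against 28.2%. The reverse order held for no member in either condition, against 33.0% and 32.6% of all genes. In the limma fit over all genes, which compares the lines on the same values that chose the members, 46 of 49 were past the threshold on the higher side in untreated cells (11.7% of all genes) and 44 of 49 under OTX015 (12.7%), and 0 on the lower side (11.9% and 11.7%). The choice of members fixed these counts, and nothing is read from them.

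The median replicate SD of the members, each from 2 libraries, was 0.0419 to 0.0559 on the log2 scale in the 4 groups. That of all genes tested was 0.0515 to 0.0688. ABR did not pass the filter. It stood at 0.486 and 0.399 FPKM in untreated parental cells, 0.592 and 0.513 FPKM in untreated P/R cells, 0.314 and 0.655 FPKM in parental cells under OTX015 and 0.124 and 0.435 FPKM in P/R cells under OTX015. ABR was thus below 1 FPKM in every library, and under OTX015 its groups overlapped and its P/R mean was the lower one, so this member was not higher in P/R cells in both conditions.

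**Figure D2:**
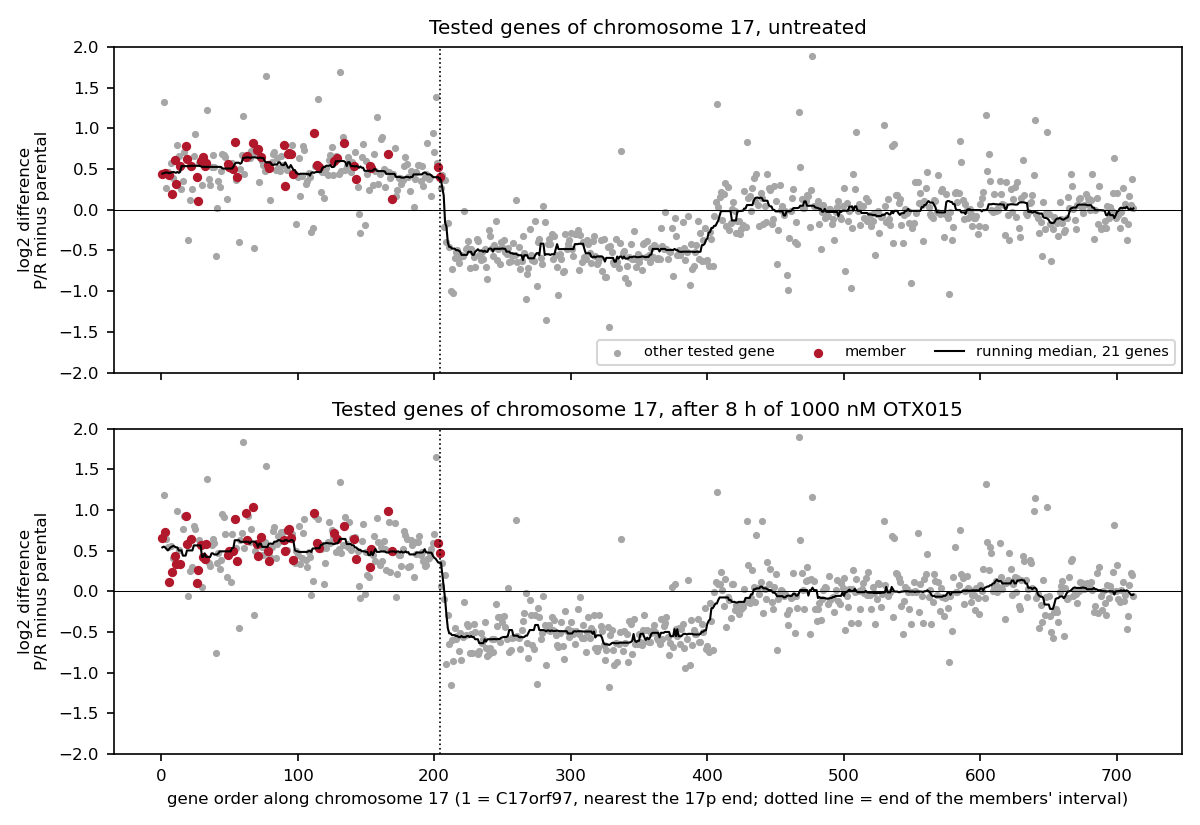
Difference in log2(FPKM + 1) between P/R and parental cells for the 712 tested genes of chromosome 17, in gene order from the 17p end, untreated (top) and under OTX015 (bottom). Red points are members, grey points other genes, and the black line is a running median. The 204 tested genes up to the dotted line sit mostly near 0.5, and the values pass below 0 shortly after it.

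In the span from C17orf97 to TMEM11 the table lists 331 genes, of which 204 were tested. Besides the 49 members these included 155 other genes, most of which also stood higher in P/R cells: 119 were called higher and 1 lower in untreated cells, and 120 and 1 under OTX015, with medians of 0.48 and 0.53 on the log2 scale. The gene called lower was P2RX5, an ATP-gated ion channel. In both conditions together, 43 of 49 members and 111 of 155 other genes were called higher, against a background of 8.37%. The span was defined by the same line differences, so these counts, too, are a description and no evidence for it.

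The height of the difference was similar along the span. The first 68 tested genes from the telomere had a median log2 difference of 0.53 untreated and 0.55 under OTX015, the middle 68 had 0.55 and 0.58, and the last 68 had 0.46 and 0.49. No tested gene lay between C17orf97 and the telomere. At the other edge, the last members inside were DHRS7B, with differences of 0.52 and 0.59, and TMEM11, with 0.40 and 0.47. Among the 10 tested genes nearest outside in gene order, 3 were above 0 in each condition, and the medians were -0.31 and -0.44. Of these 10, NATD1 had 0.26 and 0.06, MAP2K3 0.42 and 0.35, C17orf51 -0.21 and -0.10, MTRNR2L1 0.37 and 0.20, and WSB1 -0.40 and -0.90. Gene order gives no distance in bases and does not mark the centromere, so these genes need not lie close to the span. The remaining 498 tested genes of chromosome 17, beyond the 10 nearest, had medians of -0.16 in both conditions, and 10515 genes of other chromosomes had medians of -0.01 in both.

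**Figure D3:**
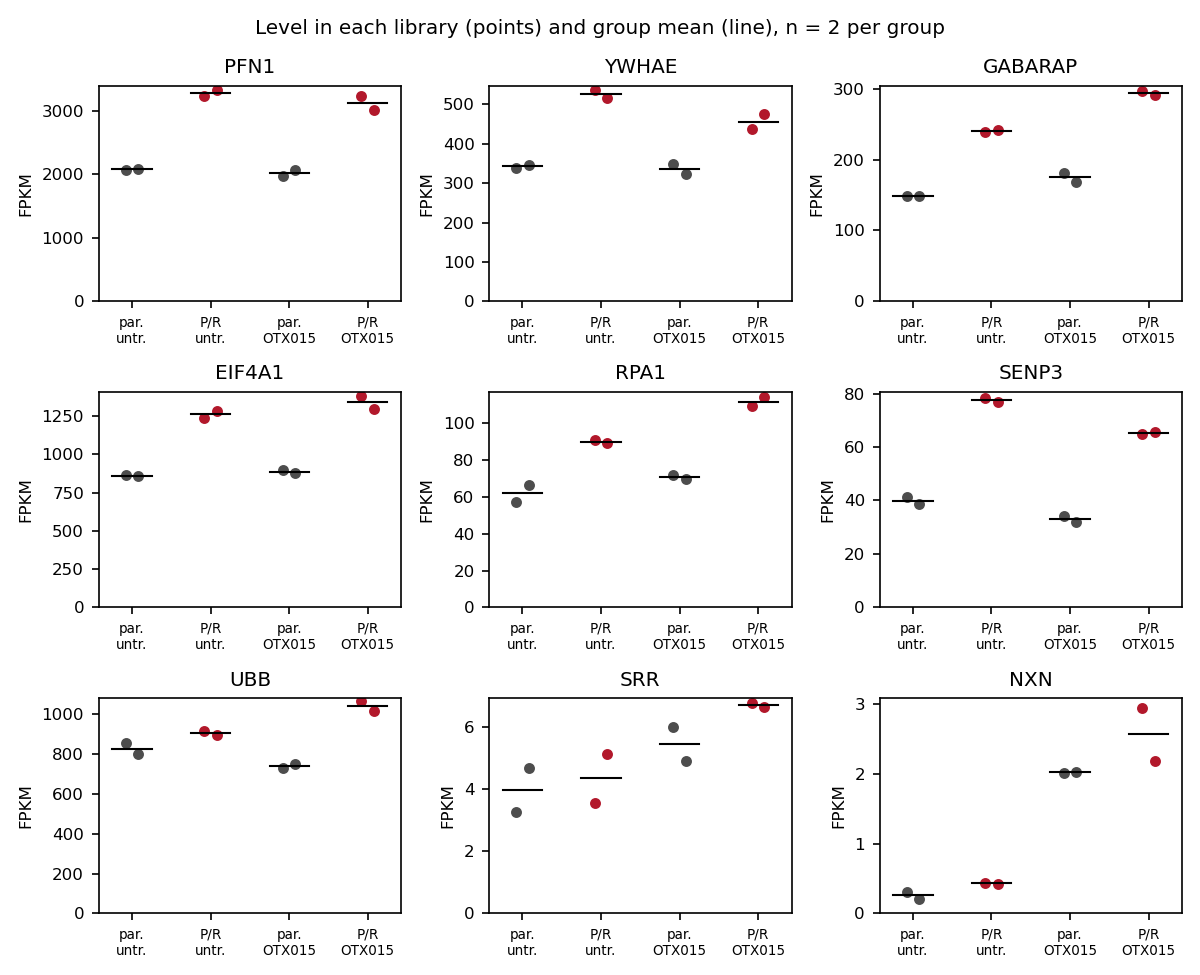
FPKM of 9 members in each library (points; grey parental, red P/R) with group means (lines), 2 libraries per group, axes from 0. Both P/R libraries lie above both parental libraries in each condition for 8 of the 9, and SRR overlaps without drug.

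Genes of membrane traffic and autophagy formed the largest functional group, with 10 members and a median log2 difference between lines of 0.63 untreated and 0.62 under OTX015. GABARAP, an ATG8-family protein that attaches to growing autophagosomes, read 149 and 148 FPKM in untreated parental cells, 238 and 241 FPKM in untreated P/R cells, 181 and 169 FPKM in parental cells under OTX015 and 296 and 292 FPKM in P/R cells under OTX015. The P/R libraries were the higher ones in both conditions, at ratios of 1.61 and 1.68. RNF167, a ubiquitin ligase of endosomal and lysosomal membranes, read 101 and 97.3 FPKM in untreated parental cells, 156 and 154 FPKM in untreated P/R cells, 73 and 72.6 FPKM in parental cells under OTX015 and 144 and 142 FPKM in P/R cells under OTX015. Its ratio was 1.57 without drug and 1.96 with it. VPS53, a subunit of the GARP complex that tethers vesicles at the trans-Golgi network, read 8.9 and 8 FPKM in untreated parental cells, 12.4 and 11.5 FPKM in untreated P/R cells, 11.8 and 11.1 FPKM in parental cells under OTX015 and 19.6 and 19.6 FPKM in P/R cells under OTX015. The groups of VPS53 did not overlap in either condition, and the equal values in the last pair follow from equal ranks under quantile normalization.

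The other traffic genes had ratios between 1.27 and 1.83. VAMP2, a SNARE of vesicle fusion, was at 1.83 and 1.8 untreated and under OTX015. TRAPPC1, a subunit of the TRAPP tethering complexes, was at 1.57 and 1.57. RABEP1 and ANKFY1, effectors of the early endosomal GTPase RAB5, were at 1.7 and 1.53 and at 1.54 and 1.41. WDR81, which acts in endosome maturation, was at 1.61 and 1.56, SGSM2, a regulator of RAB GTPases, at 1.54 and 1.51, and PITPNA, a phosphatidylinositol transfer protein, at 1.48 and 1.27.

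The 5 cytoskeletal and dynein genes other than ABR had median log2 differences of 0.56 and 0.49. PFN1, which encodes the actin-binding protein profilin and was the most abundant member, read 2062 and 2092 FPKM in untreated parental cells, 3241 and 3325 FPKM in untreated P/R cells, 1967 and 2062 FPKM in parental cells under OTX015 and 3241 and 3012 FPKM in P/R cells under OTX015. Both P/R groups were well above the parental ones, at ratios of 1.58 and 1.55. PAFAH1B1 encodes LIS1, a regulator of cytoplasmic dynein, and read 41.5 and 35.4 FPKM in untreated parental cells, 57.4 and 55 FPKM in untreated P/R cells, 58.1 and 55.7 FPKM in parental cells under OTX015 and 74.9 and 75.6 FPKM in P/R cells under OTX015. Its highest parental value under drug was above its highest P/R value without drug, since it also rose under OTX015. KIF1C, a kinesin motor, was among the 4 members with the largest difference averaged over both conditions and read 8.69 and 10.3 FPKM in untreated parental cells, 16.7 and 18.1 FPKM in untreated P/R cells, 9.38 and 8.83 FPKM in parental cells under OTX015 and 21.8 and 17.9 FPKM in P/R cells under OTX015. Its ratios were 1.84 and 2.18, and the lines did not overlap. NDEL1, which binds LIS1, had ratios of 1.31 and 1.33, and KIAA0753, a centriolar satellite protein expressed at only a few FPKM, had 1.71 and 1.61.

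The 7 signalling genes had median log2 differences between lines of 0.54 untreated and 0.44 under OTX015. YWHAE, the epsilon form of the 14-3-3 phosphoprotein-binding proteins, read 339 and 346 FPKM in untreated parental cells, 536 and 515 FPKM in untreated P/R cells, 349 and 324 FPKM in parental cells under OTX015 and 438 and 474 FPKM in P/R cells under OTX015. ARRB2, β-arrestin 2, which desensitizes and scaffolds receptors, read 131 and 124 FPKM in untreated parental cells, 228 and 228 FPKM in untreated P/R cells, 107 and 108 FPKM in parental cells under OTX015 and 208 and 193 FPKM in P/R cells under OTX015. Both genes had no overlap between lines, and the ratio of ARRB2, 1.79 and 1.87, was above that of YWHAE, 1.53 and 1.36. DVL2 encodes Dishevelled 2, which passes WNT signals from Frizzled receptors towards β-catenin, the factor named in the title of the study. DVL2 was at 33.6 ± 0.656 FPKM in untreated parental and 41.4 ± 1.9 FPKM in untreated P/R cells (mean ± SD, n = 2), and at 40.2 ± 1.88 and 56.9 ± 1.56 FPKM under OTX015. The ratios of DVL2 were 1.23 and 1.41. NXN encodes nucleoredoxin, a thioredoxin-like protein that binds Dishevelled, and read 0.311 and 0.208 FPKM in untreated parental cells, 0.441 and 0.427 FPKM in untreated P/R cells, 2.01 and 2.03 FPKM in parental cells under OTX015 and 2.95 and 2.19 FPKM in P/R cells under OTX015. NXN was below 1 FPKM in all untreated libraries, so it passed the filter only through the treated ones. Its log2(FPKM + 1) differences between lines of 0.19 ± 0.13 and 0.23 ± 0.13 (estimate ± SE) were among the 4 smallest averaged over both conditions. That scale understates differences of low genes, and the ratios of group means of NXN were 1.67 and 1.27. CRK, an adaptor of tyrosine kinase signalling, had ratios of 1.26 and 1.27, MAP2K4, a kinase upstream of JNK and p38, 1.53 and 1.25, and CTDNEP1, a phosphatase of the nuclear envelope, 1.63 and 1.71.

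The medians of the 8 genes of RNA processing and translation were 0.56 untreated and 0.55 under OTX015 on the log2 scale. EIF4A1, the RNA helicase of the cap-binding complex eIF4F, read 866 and 856 FPKM in untreated parental cells, 1239 and 1283 FPKM in untreated P/R cells, 894 and 879 FPKM in parental cells under OTX015 and 1381 and 1297 FPKM in P/R cells under OTX015. EIF5A, a translation elongation factor that carries the modified residue hypusine, read 938 and 913 FPKM in untreated parental cells, 1266 and 1239 FPKM in untreated P/R cells, 775 and 763 FPKM in parental cells under OTX015 and 1036 and 967 FPKM in P/R cells under OTX015. P/R libraries of both genes were above the parental ones in each condition, and EIF5A was lower with drug than without it in both lines. PRPF8, the central protein of the U5 snRNP of the spliceosome, was also among those 4 largest differences and read 60.9 and 61.7 FPKM in untreated parental cells, 110.3 and 103 FPKM in untreated P/R cells, 59.9 and 58.6 FPKM in parental cells under OTX015 and 119 and 107 FPKM in P/R cells under OTX015. Its ratios were 1.74 and 1.92. CLUH, which binds messenger RNAs of mitochondrial proteins, read 101 and 92.5 FPKM in untreated parental cells, 147 and 141 FPKM in untreated P/R cells, 68.9 and 74.3 FPKM in parental cells under OTX015 and 118 and 97.5 FPKM in P/R cells under OTX015. SMG6, the endonuclease of nonsense-mediated decay, read 11.6 and 8.97 FPKM in untreated parental cells, 14.2 and 13.3 FPKM in untreated P/R cells, 16.1 and 13.9 FPKM in parental cells under OTX015 and 17.5 and 14.8 FPKM in P/R cells under OTX015. SMG6 was also among those 4 smallest differences, and its replicates overlapped between lines under OTX015. METTL16, an RNA N6-adenosine methyltransferase, had ratios of 1.62 and 1.37, ELP5, a subunit of the tRNA-modifying Elongator complex, 1.61 and 1.58, and ELAC2, which trims the 3′ ends of tRNA precursors, 1.44 and 1.44.

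For the 5 genes of chromatin, DNA repair and the nucleolus the median log2 differences were 0.60 untreated and 0.71 under OTX015. SENP3, a nucleolar protease that removes SUMO, had the largest untreated difference of all members and read 41.2 and 38.7 FPKM in untreated parental cells, 78.3 and 76.8 FPKM in untreated P/R cells, 34.1 and 31.9 FPKM in parental cells under OTX015 and 64.7 and 65.7 FPKM in P/R cells under OTX015. Its log2 differences were 0.94 ± 0.06 and 0.96 ± 0.06. PELP1, a scaffold of the complex that acts with SENP3 in ribosome assembly, read 60.6 and 55.1 FPKM in untreated parental cells, 78 and 85.8 FPKM in untreated P/R cells, 70.7 and 74.3 FPKM in parental cells under OTX015 and 109 and 95.6 FPKM in P/R cells under OTX015. RPA1, the large subunit of the single-stranded DNA-binding protein RPA, read 57.3 and 66.7 FPKM in untreated parental cells, 90.7 and 89.5 FPKM in untreated P/R cells, 72.1 and 69.9 FPKM in parental cells under OTX015 and 109 and 114 FPKM in P/R cells under OTX015. The lines did not overlap in either condition for these 3 genes. CHD3, a remodelling ATPase of the NuRD complex, read 47.5 and 43.2 FPKM in untreated parental cells, 73 and 65.5 FPKM in untreated P/R cells, 32 and 35.9 FPKM in parental cells under OTX015 and 59.2 and 53.1 FPKM in P/R cells under OTX015. NCOR1, a corepressor of nuclear receptors, had ratios of 1.64 and 2.03.

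For the 3 genes of ubiquitin and the proteasome they were 0.40 untreated and 0.49 under OTX015. PSMB6, a catalytic subunit of the 20S proteasome, read 128 and 132 FPKM in untreated parental cells, 170.2 and 175 FPKM in untreated P/R cells, 142 and 141 FPKM in parental cells under OTX015 and 181 and 185 FPKM in P/R cells under OTX015. UBB, a polyubiquitin gene, read 856 and 799.9 FPKM in untreated parental cells, 918 and 894 FPKM in untreated P/R cells, 731 and 750.4 FPKM in parental cells under OTX015 and 1066 and 1016 FPKM in P/R cells under OTX015. The UBB lines were close without drug, at a ratio of 1.09, and further apart with it, at 1.41. UBE2G1, a ubiquitin-conjugating enzyme, had ratios of 1.45 and 1.42.

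The 8 genes of mitochondria, redox and metabolism had median log2 differences between lines of 0.52 untreated and 0.50 under OTX015. C1QBP, a protein of the mitochondrial matrix, read 292 and 301 FPKM in untreated parental cells, 465 and 468 FPKM in untreated P/R cells, 257 and 250.0 FPKM in parental cells under OTX015 and 399 and 405 FPKM in P/R cells under OTX015. ACADVL, which opens the mitochondrial oxidation of very long-chain fatty acids, read 120.1 and 114 FPKM in untreated parental cells, 205 and 202 FPKM in untreated P/R cells, 161 and 168 FPKM in parental cells under OTX015 and 262 and 249 FPKM in P/R cells under OTX015. The lines did not overlap, with ratios of 1.57 and 1.59 for C1QBP and 1.74 and 1.55 for ACADVL. GLOD4, a glyoxalase-domain protein, read 29.9 and 33.4 FPKM in untreated parental cells, 40.6 and 44.9 FPKM in untreated P/R cells, 36.3 and 33.6 FPKM in parental cells under OTX015 and 34.8 and 40.9 FPKM in P/R cells under OTX015, and its lines overlapped under OTX015. SRR, serine racemase, read 3.25 and 4.7 FPKM in untreated parental cells, 3.57 and 5.14 FPKM in untreated P/R cells, 6 and 4.92 FPKM in parental cells under OTX015 and 6.76 and 6.65 FPKM in P/R cells under OTX015, and its lines overlapped without drug. GLOD4 and SRR thus complete the 4 smallest differences. MPDU1, needed for the use of dolichol-linked mannose, had ratios of 1.45 and 1.45, TXNDC17, a thioredoxin-like protein, 1.44 and 1.3, TMEM11, a protein of the inner mitochondrial membrane, 1.33 and 1.41, and DHRS7B, a peroxisomal reductase of ether lipid synthesis, 1.49 and 1.55.

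Among the 2 genes of the nuclear pore and transport, NUP88, a nucleoporin of the cytoplasmic face, read 48.2 and 47.4 FPKM in untreated parental cells, 75 and 86.7 FPKM in untreated P/R cells, 45.7 and 36.9 FPKM in parental cells under OTX015 and 54.4 and 57 FPKM in P/R cells under OTX015. RANGRF, which binds the transport GTPase RAN, read 18.5 and 19.4 FPKM in untreated parental cells, 27.8 and 28 FPKM in untreated P/R cells, 15.2 and 14.4 FPKM in parental cells under OTX015 and 23.3 and 24 FPKM in P/R cells under OTX015. NUP88 had ratios of 1.69 and 1.35 and RANGRF of 1.47 and 1.6. C17orf97, for which no role is stated here, read 3.8 and 3.3 FPKM in untreated parental cells, 5.05 and 5.33 FPKM in untreated P/R cells, 3.34 and 4.06 FPKM in parental cells under OTX015 and 6.54 and 6.28 FPKM in P/R cells under OTX015. C17orf97 did not overlap between lines in either condition.

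**Figure D4:**
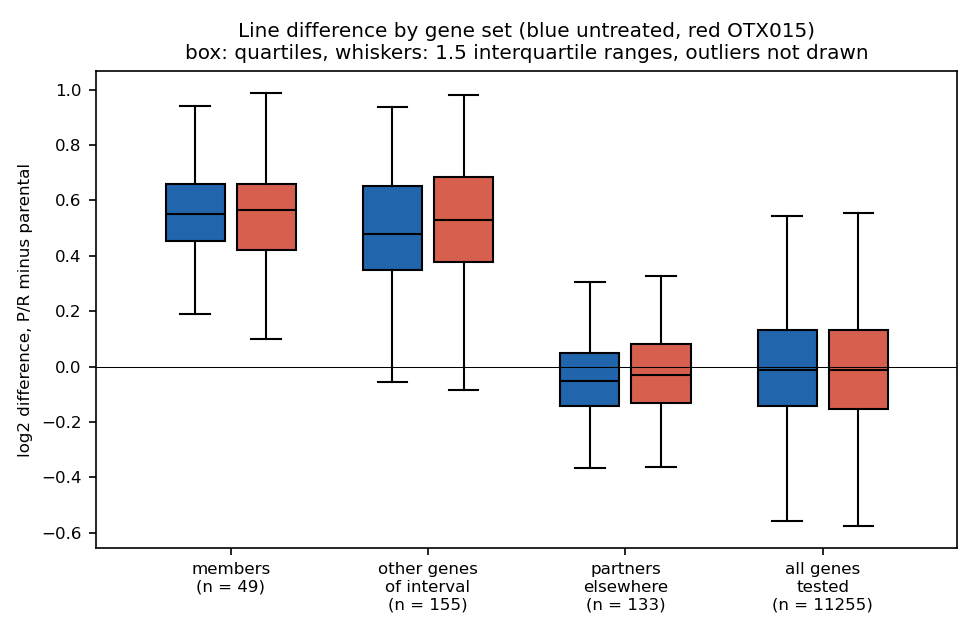
Difference in log2(FPKM + 1) between P/R and parental cells for the members, the other tested genes of the same span, the partner genes encoded elsewhere and all genes tested, untreated (blue) and under OTX015 (red). Boxes are quartiles with the median line, and whiskers reach 1.5 interquartile ranges. The members and the other genes of the span have medians of 0.48 to 0.56, and the partners have -0.05 and -0.03.

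The messenger RNA of partners of the members, some of them paralogs and not subunits of the same machine, was read beside them. A list of subunits and close paralogs in 17 groups had 138 genes in the table that lie outside the span, and 133 were tested. In untreated P/R cells 10 were called higher (against 11.7% of all genes) and 21 lower (against 11.9%), with a median log2 difference of -0.05. Under OTX015 8 were called higher and 17 lower, with a median of -0.03. Without any 1 of the 4 untreated libraries the count of lower partners went from 21 to between 10 and 13, and without P/R replicate 2 that of higher ones went from 10 to 6. Under OTX015 the count of higher partners went from 8 to 3 without parental replicate 1 and to 4 without P/R replicate 2, and the count of lower ones from 17 to 9 without parental replicate 2 or P/R replicate 1 and to 11 without parental replicate 1.

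Within the machines, U5 snRNP partners of PRPF8 were called higher in 0 and lower in 1 of 7 cases in each condition, with medians of -0.11 and -0.05. Other subunits of the 20S proteasome were called higher in 0 and lower in 5 of 13 cases untreated and in 0 and 3 under OTX015. PSMB5 was at 163 FPKM in untreated parental and 104 FPKM in untreated P/R cells (log2 difference -0.64, adjusted p = 1.45e-05), and PSMB3 at 409 and 262 FPKM (-0.64, adjusted p = 8.55e-06). PSMB3 lies on chromosome 17 outside the span. Of the 498 tested genes of that chromosome beyond the span and the 10 nearest to it, 39.8% were called lower untreated, against 11.9% of all genes. PSMB5 lies on chromosome 14, where 24.8% of tested genes were called lower untreated and 23.5% under OTX015 (11.9% and 11.7% of all genes). The part of gene place in the differences of PSMB3 and PSMB5 was not tested. Partners of PELP1 and SENP3 were called lower in 3 of 5 cases untreated and in 1 of 5 under OTX015, and none was called higher. Dynein, dynactin and LIS1 partners were called higher in 0 and lower in 2 of 19 cases untreated and were not called under OTX015. RPA2 and RPA3 were not called in either condition. The partners of eIF4F and eIF5A were called higher in 2 and lower in 5 of 13 cases untreated and in 1 and 5 under OTX015. TRAPP subunits were called higher in 2 and lower in 0 of 13 cases untreated and in 2 and 1 under OTX015, and NuRD subunits higher in 1 and lower in 0 of 12 cases and in 2 and 1. In each of the other 9 lists at most 1 gene was called higher and at most 2 lower in either condition.

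Some partners stood opposite to their 17p relatives. EIF4A2, the close paralog of EIF4A1, read 189.7 and 178 FPKM in untreated parental cells, 107 and 108 FPKM in untreated P/R cells, 226 and 213 FPKM in parental cells under OTX015 and 111 and 124 FPKM in P/R cells under OTX015, and both P/R groups were the lower ones (log2 differences -0.76, adjusted p = 2.64e-05 untreated and -0.90, adjusted p = 9.01e-06 under OTX015). Of the paralogs of DVL2, DVL1 was not called in either condition (-0.01, adjusted p = 0.963 and -0.12, adjusted p = 0.219). DVL3 was lower in P/R cells (-0.33, adjusted p = 0.00428 and -0.36, adjusted p = 0.00254). EIF4G1, the scaffold of eIF4F, was lower as well (-0.52, adjusted p = 1.60e-05 and -0.23, adjusted p = 0.00186). EIF4A2, DVL3 and EIF4G1 lie on chromosome 3, where 16.8% of the tested genes were called lower untreated and 16.3% under OTX015. These shares are of the whole chromosome, and the part of it that holds these genes was not counted apart. The shares of all genes were 11.9% and 11.7%, and the part of gene place in these differences was not tested. Partners called higher in both conditions included TRAPPC2L, TRAPPC8, ARRB1 and EIF4G3. TRAPPC2L had the largest difference, from 31.5 to 105 FPKM without drug (1.71, adjusted p = 2.93e-06), and ARRB1, the paralog of ARRB2, had 0.26, adjusted p = 0.00605 and 0.56, adjusted p = 6.18e-05. Of the 133 partners, 5 were called higher and 12 lower in both conditions, against 8.37% and 7.54% of all genes.

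The response to OTX015 was not used to choose the members, though it is computed from the same libraries, so it was tested. The members did not move as a block: in parental cells 15 of 49 rose (25.7% of all genes rose) and 10 fell (24.7% of all genes), and in P/R cells 13 rose (22.5%) and 12 fell (21.8%). These shares were near the background. Both OTX015 libraries were above both untreated ones for 20 members in parental cells (39.2% of all genes) and for 21 in P/R cells (37.8%), and below them for 16 (36.4%) and 15 (34.9%). The median log2 change was 0.02 in parental and 0.05 in P/R cells, against 0.02 and 0.01 for all genes. Rises in both lines were called for 10 members and falls in both for 8, shares of 20.4% and 16.3%. These were near those of all genes, 18.6% and 18.2%. In neither line were 18 of 49 members called, against 4758 of 11255 genes. These counts include NXN, which the filter itself favours; over the 46 members with a mean of at least 5 FPKM, which leaves NXN out, 14 rose and 10 fell in parental cells, and 12 rose and 12 fell in P/R cells. Leaving out untreated P/R replicate 1 took the 12 falls in P/R cells to 5, and leaving out untreated P/R replicate 2 took them to 7.

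**Figure D5:**
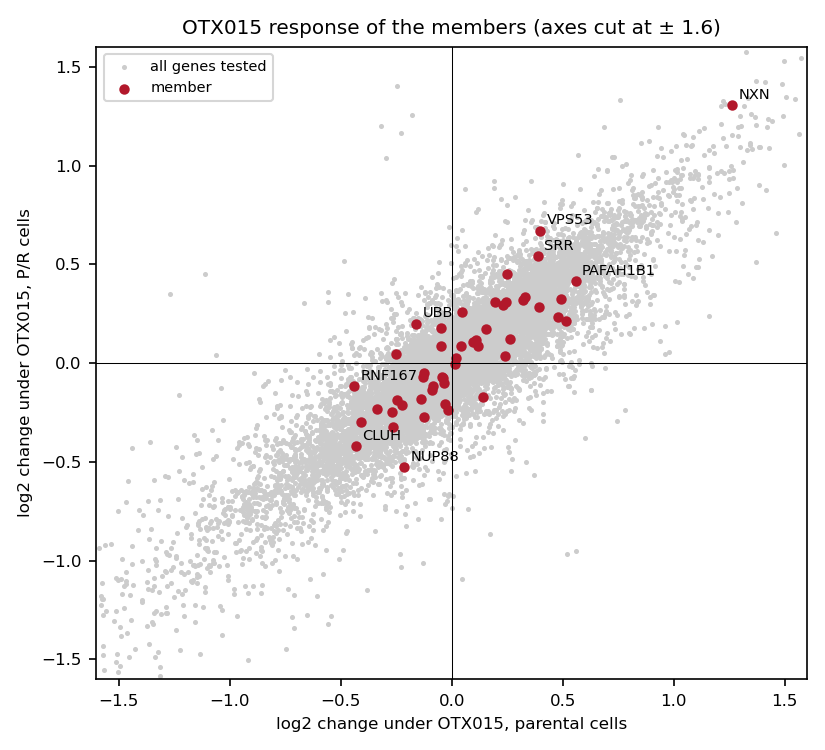
Change in log2(FPKM + 1) under OTX015 in parental cells (horizontal) and in P/R cells (vertical) for the members (red) and all genes tested (grey), with axes limited to ± 1.6, so that some genes lie outside. NXN is the member farthest from 0, at 1.26 and 1.31, and UBB lies at the upper left, at -0.16 and 0.20.

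NXN went from below 1 FPKM to between 2 and 3 FPKM, a log2 change of 1.26 in parental and 1.31 in P/R cells. It passed the filter on low values only through its OTX015 libraries, so its change is a description with no test. VPS53 rose by 0.40, adjusted p = 0.00294 and 0.67, adjusted p = 0.000204, and PAFAH1B1 by 0.56, adjusted p = 0.000233 and 0.42, adjusted p = 0.00157, in the same order of lines. SRR rose in P/R cells (0.54, adjusted p = 0.03) and did not pass in parental cells (0.39, adjusted p = 0.0896); the P/R call was lost without untreated P/R replicate 1 or either P/R library under OTX015, with adjusted p from 0.0961 to 0.202. ACADVL, TRAPPC1, GABARAP, ANKFY1, PELP1, RPA1 and DVL2 also rose in both lines. PITPNA, SMG6, PSMB6, TXNDC17 and MAP2K4 rose in parental cells and did not pass in P/R cells, while DHRS7B, like SRR, did the reverse. The call of SMG6 was lost without either of 2 libraries (adjusted p up to 0.0595). That of PSMB6 was lost without any 1 of the 4 libraries compared (0.0612 to 0.147), without the variance trend (0.117) and with only the groups compared (0.0609). The call of PELP1 was lost without untreated parental replicate 2 (adjusted p = 0.0579) and, in P/R cells, without untreated replicate 1 (0.0734) or OTX015 replicate 1 (0.0687).

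Falls in both lines were called for CLUH, EIF5A, CHD3, ARRB2, RNF167, C1QBP, SENP3 and RANGRF. CLUH fell most averaged over both lines, with -0.43, adjusted p = 0.00277 in parental and -0.42, adjusted p = 0.00374 in P/R cells. EIF5A had -0.27, adjusted p = 0.000575 and -0.32, adjusted p = 0.000241, and CHD3 -0.41, adjusted p = 0.0032 and -0.30, adjusted p = 0.018. YWHAE, METTL16 and RABEP1 fell in P/R cells and did not pass in parental cells, NCOR1 did the reverse, and the call of YWHAE was lost without untreated P/R replicate 1 (adjusted p = 0.0762) or OTX015 P/R replicate 1 (0.0652). NUP88 fell in P/R cells (-0.53, adjusted p = 0.00221) and did not pass in parental cells (-0.21, adjusted p = 0.0964). The P/R calls of ARRB2, CHD3, RANGRF and RNF167 were each lost without at least 1 library, with adjusted p up to 0.0727, 0.129, 0.0817 and 0.192. That of RNF167 was also lost with a replicate block (adjusted p = 0.0605).

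The promoters of the members were compared because the title of the study names MYC, a factor that binds the letters CACGTG. RefSeq sequence (build GRCh38.p14) of the 250 bases before the start site was found for 47 of the 50 members, and not matched for VPS53, RABEP1 and PSMB6. CACGTG, which reads the same on both strands, was in 3 of 47 (6.38%), against 9.35% of the promoters of 8705 tested genes matched by symbol and 6.49% of all 27305 promoters. GGGCGG, the letters of a GC box on either strand, was in 34 of 47 (72.3%, against 68.2% and 42.3%), CCAAT on either strand in 15 (31.9%, against 35.6% and 33%) and TATAAA on either strand in 1 (2.13%, against 4.93% and 11.1%). The median GC content was 66%, against 65.2% in tested genes. A match of letters is a description and not a binding site.

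The 3 members with CACGTG were RPA1, PELP1 and DVL2, and all 3 were among the members that rose under OTX015 in both lines. NXN, PAFAH1B1, ACADVL, TRAPPC1, GABARAP and ANKFY1 also rose in both lines and had no CACGTG. RPA1 had 0.20, adjusted p = 0.0383 in parental and 0.31, adjusted p = 0.00568 in P/R cells, PELP1 0.32, adjusted p = 0.00743 and 0.32, adjusted p = 0.00925, and DVL2 0.25, adjusted p = 0.0067 and 0.45, adjusted p = 0.000342. The parental call of RPA1 was lost in 6 of the other settings, with adjusted p up to 0.265 without untreated parental replicate 1. Their 250 bases are printed with those of EIF5A, 1 picked example of a member that fell in both lines and has no such match. They lie at chr17:1829755-1830004, plus strand, chr17:4704138-4704387, minus strand, chr17:7234518-7234767, minus strand, and chr17:7306749-7306998, plus strand, and run 5′ to 3′ on the gene's strand, with the last base just before the start site. Capitals mark each match to one of the 4 motifs searched or to its reverse complement.
RPA1: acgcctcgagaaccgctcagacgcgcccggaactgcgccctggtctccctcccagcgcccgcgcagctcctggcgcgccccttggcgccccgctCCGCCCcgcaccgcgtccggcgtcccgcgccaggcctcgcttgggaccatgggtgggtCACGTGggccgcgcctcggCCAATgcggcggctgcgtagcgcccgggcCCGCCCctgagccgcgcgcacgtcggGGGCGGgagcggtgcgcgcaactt
PELP1: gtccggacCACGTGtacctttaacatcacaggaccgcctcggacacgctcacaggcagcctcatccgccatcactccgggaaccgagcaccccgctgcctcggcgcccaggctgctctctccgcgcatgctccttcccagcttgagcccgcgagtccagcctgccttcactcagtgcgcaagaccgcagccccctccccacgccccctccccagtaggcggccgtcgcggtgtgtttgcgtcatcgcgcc
DVL2: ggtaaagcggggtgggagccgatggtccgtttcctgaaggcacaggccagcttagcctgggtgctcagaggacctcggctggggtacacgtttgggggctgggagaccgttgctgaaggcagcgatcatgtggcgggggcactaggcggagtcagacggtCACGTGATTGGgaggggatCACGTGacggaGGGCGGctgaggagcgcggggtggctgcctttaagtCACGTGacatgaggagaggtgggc
EIF5A: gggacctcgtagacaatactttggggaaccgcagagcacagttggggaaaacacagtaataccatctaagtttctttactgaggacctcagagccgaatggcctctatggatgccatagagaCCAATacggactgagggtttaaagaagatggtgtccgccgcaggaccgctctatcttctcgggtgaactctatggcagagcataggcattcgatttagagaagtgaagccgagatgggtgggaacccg

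DVL2 holds CACGTG at 3 places, and at the first of them it runs directly into ATTGG, the reverse complement of CCAAT. A relation between these letters and the response was not tested.

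The difference between the lines was compared with and without drug through the difference in OTX015 response. It equals the line difference under OTX015 minus the one without drug, and the members were chosen on these. The choice thus limits what it can show for members, and its values are read as a description. No member passed in limma's test (0 of 49; 7 and 2 of 11255 genes passed in each direction, 0.0622% and 0.0178%). At an unadjusted p under 0.05 there were 9 of 49 members, against 9.60% of all genes. These were VPS53, RNF167, DVL2, NCOR1 and UBB, whose P/R cells were further above parental cells under drug, and GLOD4, YWHAE, NUP88 and ACADVL, where they were less far above. The median difference in response over the members was 0.00 on the log2 scale.

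UBB had the largest value and was the 1 member called in opposite directions, against 11 of 11255 genes tested. It had a fall in parental cells (-0.16, adjusted p = 0.013) and a rise in P/R cells (0.20, adjusted p = 0.00506). The difference between these responses was 0.36 and did not pass (adjusted p = 0.118). The fall in parental cells was lost without untreated replicate 1 (adjusted p = 0.0964), without OTX015 replicate 1 (0.0659) and without the variance trend (0.0741). RNF167 fell in both lines, by 0.44 in parental and by 0.12 in P/R cells on the log2 scale, and its difference of 0.32 did not pass (adjusted p = 0.142).

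Some values carry a limit from the counting of reads. Of the 50 members, 24 overlap a coding gene on the opposite strand in GENCODE 29 and 7 overlap one on the same strand, and the sources used here do not say if the counting used strand. SRR and SMG6 overlap each other, as do RABEP1 and NUP88, TXNDC17 and KIAA0753, and CTDNEP1 and ELP5, so reads could be assigned to either gene of a pair. SENP3 and EIF4A1 both overlap a readthrough gene that joins them. Named processed or other pseudogenes exist for 10 members, with 13 for EIF4A1, 10 for PFN1, 9 for CLUH, 6 for YWHAE and 5 for UBB.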

How the data were processed

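RNA sequencing values came from 1 deposited table of 19718 genes and 8 libraries. The authors' unit is taken to be FPKM: the header names none, and TopHat2 2.0, Cufflinks 2.0 and hg19 are named per the submitters' processing notes. The deposited FPKM values are quantile normalized (sorted values of the libraries differ by at most 0.136% at means of 1 or more). Depth is unknown and no counting error is given. Columns were matched to samples by their descriptions; 28 symbols stored as numbers were renamed by Ensembl identifier.

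Genes with at least 1 FPKM in at least 2 libraries (11255) were fitted on log2(FPKM + 1) with 4 group means in limma 3.58.1 (R 4.3.3, variance trend, 4 residual and 5.23 prior degrees of freedom), two-sided, with Benjamini-Hochberg adjustment over all genes and a threshold of 0.05. The smallest exact permutation p for 2 against 2 is 0.333, so p-values rest on the model. The fit was run on simulated data with independent noise for each gene and no quantile normalization. That run does not show how the fit behaves on the deposited values. Gene order comes from GENCODE 29 (GRCh38) by identifier, so no gene coordinates are printed.

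The members and lists were chosen with earlier results of these data known. Values by library were printed for the 2 most abundant members of each role, the 4 largest and 4 smallest line differences averaged over both conditions, and the 4 largest rises and falls under OTX015; those of ABR, EIF4A2, PF4, ITGA2B and TFRC were added after their values were seen. For partners, those called in both conditions in 1 direction were eligible, at most 10, and 1 of these is not reported here. Other settings changed the pseudocount, filter, variance trend, centring, threshold, libraries or groups in the fit. Replicate numbers were not given as a shared batch, so no block entered the fit.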

Additional observations from a re-analysis of the deposited data

Results flagged for a closer look

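In UBB, both OTX015 libraries of parental cells lay below both untreated ones and both OTX015 libraries of P/R cells lay above both untreated ones. The difference between the 2 responses was 0.36 on the log2 scale, and its test did not pass (limma, adjusted p = 0.118). The other 48 tested members showed no such opposite movement of every library, and for none did the difference in response pass. This movement was not counted over all genes.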

How the results depend on the processing

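No result changed direction once called. Counts of members and of other genes of the span called between the lines were set by how these were chosen. They are listed below for each setting as a description, and nothing is read from them. Of the values of single members under other settings, 1653 kept their side of the threshold, 58 fell below it and 7 rose above it. With a log2 difference of at least 0.5 also required, members called higher under OTX015 went to 27, rises and falls under OTX015 to 3 and 0 in parental and to 3 and 1 in P/R cells, other genes of the span called higher untreated to 69, partners called higher to 3 in each condition and partners called lower to 5 untreated and 3 under OTX015. With a pseudocount of 5 the median line difference of the members under OTX015 was 0.48, and that of the other genes of the span 0.35 untreated and 0.39 under OTX015. Without a filter the latter were 0.32 and 0.35, and partners called higher under OTX015 were 5. Without the variance trend, partners called lower were 12 untreated and 7 under OTX015, and with only the groups compared 9 under OTX015. The single gene of the span called lower became 0 untreated with a pseudocount of 0.1 and 0 in both conditions with a mean of at least 5 FPKM, 3 and 2 with a pseudocount of 5, 2 untreated without a filter, and 2 in both conditions with only the groups compared.

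With 1 library left out, where the lone library is assumed to vary like the other groups, members called higher ran from 40 to 45 untreated and from 42 to 43 under OTX015. Rises in P/R cells ran from 9 to 12, falls from 5 to 10; rises in parental cells ran from 11 to 12 and falls from 9 to 10. Other genes of the span called higher ran from 82 to 98 untreated and from 101 to 111 under OTX015, and called lower from 0 to 1 in both. Partners called higher ran from 6 to 10 and from 3 to 7, and called lower from 10 to 13 and from 9 to 14. No member passed for the difference in response in any of these settings.

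Same-numbered libraries share only a number. Their deviations correlated at 0.01 between untreated lines, at -0.12 between OTX015 lines and at 0.01 between treatments within each line. With a replicate block, members called higher were 46 and 44, rises and falls were 16 and 10 in parental and 13 and 10 in P/R cells, and partners called were 9 and 18 untreated and 7 and 14 under OTX015. A crossed block, chosen after seeing the data, gave 44 members under OTX015, and 6 and 13 partners. Unknown depth limits low members such as NXN, SRR and KIAA0753.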
